A study of Mus musculus with 6 samples.

Results

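The class 3 semaphorin genes of the mouse, Sema3a to Sema3g, were described in EO771 cells, a mouse mammary carcinoma line. They were taken by symbol from a table of read counts, and all 7 were among its 49523 gene symbols. Cancer stem cells of the line (CSC) were compared with its other cells (non-CSC), each as 3 RNA-seq libraries. The labels name no genotype, treatment, time or passage for either group, and do not give the way the CSC were obtained. Nothing says that replicates were separate cultures, and the p-values then cover only the library-to-library spread, which may be technical. Sema3c is the gene in the series title, which names a LINE-1 retrotransposon as its enhancer, so its difference is not independent of the choice of gene. CSC libraries held 27099879 to 28205651 counts and non-CSC libraries 32204112 to 35971131.

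Class 3 semaphorins are the secreted members of the semaphorin family. They were first known as cues that repel growing axons, and they also steer endothelial, neural crest and tumour cells. Most bind a neuropilin, Nrp1 or Nrp2, which presents the ligand to a plexin, the subunit that signals into the cell. Sema3e is the exception and binds plexin D1 directly. Proprotein convertases such as furin cut the secreted proteins, and vascular endothelial growth factors (VEGF) bind the same neuropilins. In human tumours SEMA3B and SEMA3F are known as candidate tumour suppressors, whereas SEMA3C has been linked to growth and invasion.

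The 7 genes lie on 3 chromosomes (GRCm38). Sema3d, Sema3a, Sema3e and Sema3c follow one another on chromosome 5, with Sema3c last, at 17574816 to 17730268 on the plus strand and 3318 kb beyond the end of Sema3e. Sema3b (107597674 to 107609241) and Sema3f (107681499 to 107710475) are 72.3 kb apart on the minus strand of chromosome 9. Sema3g is on chromosome 14 at 31217873 to 31230352. All are protein-coding, with coding sequences of 749 to 785 codons.

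The members share little uninterrupted sequence, which bears on how far their reads can be mixed up. Their coding sequences were 59.9% to 65.1% identical in pairs. The longest run of identical coding bases that Sema3c had with Sema3f started at coding base 1591 of Sema3c and spanned 20 bases. Runs from the same base were the longest with Sema3a (17 bases), Sema3d (17 bases) and Sema3e (18 bases). They are printed here with 20 bases on either side, 5′ to 3′ from GENCODE M21 transcripts, with the run each gene shares with Sema3c in capitals. In Sema3c the run with Sema3f is marked.
Sema3c: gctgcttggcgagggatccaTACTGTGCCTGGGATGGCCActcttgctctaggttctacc
Sema3f: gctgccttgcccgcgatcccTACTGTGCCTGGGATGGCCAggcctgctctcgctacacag
Sema3e: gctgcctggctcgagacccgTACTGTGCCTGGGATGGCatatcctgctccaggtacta
Sema3a: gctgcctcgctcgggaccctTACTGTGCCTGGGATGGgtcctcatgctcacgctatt
Sema3d: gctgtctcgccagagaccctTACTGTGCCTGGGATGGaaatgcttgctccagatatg

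Of all 6 relatives, Sema3b had the longest run in common with Sema3c, 26 bases from coding base 1166 of Sema3c. Capitals mark it in both genes.
Sema3c: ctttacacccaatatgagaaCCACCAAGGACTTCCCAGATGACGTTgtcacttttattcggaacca
Sema3b: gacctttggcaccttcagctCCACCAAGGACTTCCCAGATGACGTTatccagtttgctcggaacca

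No 50-base word of the longest Sema3b, Sema3c, Sema3d, Sema3f or Sema3g transcript was found in a transcript of another gene. For Sema3a 2.58% of the words were also in the gene model Gm43431, and for Sema3e 0.191% were in other genes. No exon of the 7 genes was overlapped by another gene on either strand in GENCODE M21.

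The promoter window of Sema3c held more CpG dinucleotides than those of the 4 relatives matched. RefSeq promoters (GRCm38.p6, 250 bases before to 50 after the start) were matched for 5 of the 7 genes. Sema3b and Sema3f were not matched, so Sema3c could be compared only with the 4 relatives that were scarce in these libraries. The Sema3c window, chr5:17574566-17574865 on the plus strand, held 42 CpG dinucleotides and 75.7% G and C. As many CpG were found in 3.03% of 32851 mouse promoters of that length, whose median was 7. The Sema3a window, chr5:13396534-13396833 on the plus strand, held 2 CpG and 41.3% G and C. It lies at a start inside the annotated gene, whose first position is 13124822, and other starts of Sema3a were not searched. The Sema3e window, chr5:14025026-14025325 on the plus strand, held 11 CpG and 50.7% G and C. Sema3d and Sema3g had 8 CpG each. The letters GGGCGG, searched on both strands, occurred 3 times in the Sema3c window, 2 times in that of Sema3e and once in that of Sema3g, and in 35.7% of all promoters. None of the 5 held TATAAA on either strand, which 13.6% of all promoters did. The windows of the most abundant gene and of 2 scarce ones are given with each CpG in capitals.
Sema3c: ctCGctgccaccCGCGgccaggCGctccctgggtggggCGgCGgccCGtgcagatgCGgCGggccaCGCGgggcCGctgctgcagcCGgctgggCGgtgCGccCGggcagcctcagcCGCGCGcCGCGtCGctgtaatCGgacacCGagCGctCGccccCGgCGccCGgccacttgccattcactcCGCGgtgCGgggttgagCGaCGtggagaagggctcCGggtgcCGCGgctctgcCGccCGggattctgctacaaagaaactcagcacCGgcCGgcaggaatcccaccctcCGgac
Sema3a: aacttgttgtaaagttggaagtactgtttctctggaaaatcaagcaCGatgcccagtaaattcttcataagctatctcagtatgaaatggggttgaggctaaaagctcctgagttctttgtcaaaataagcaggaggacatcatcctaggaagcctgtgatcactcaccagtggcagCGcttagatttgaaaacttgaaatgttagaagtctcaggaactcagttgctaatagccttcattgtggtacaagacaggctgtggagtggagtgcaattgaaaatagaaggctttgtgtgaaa
Sema3e: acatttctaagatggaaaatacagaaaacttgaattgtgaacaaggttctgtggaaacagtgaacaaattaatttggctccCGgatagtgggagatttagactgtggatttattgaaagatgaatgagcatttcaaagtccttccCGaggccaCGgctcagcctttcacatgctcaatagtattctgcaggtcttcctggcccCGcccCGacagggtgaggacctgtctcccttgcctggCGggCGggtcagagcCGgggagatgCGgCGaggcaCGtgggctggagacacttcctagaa

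Levels are given as CPM, counts scaled to a common library size, and, where genes are compared with each other, as CPM per kilobase (kb) of the longest GENCODE transcript. By this measure the class 3 ligands fell into an abundant set, Sema3c, Sema3b and Sema3f, and a scarce set, Sema3a, Sema3g, Sema3e and Sema3d. Both groups had the same abundant set, in the same order.

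**Figure D1:**
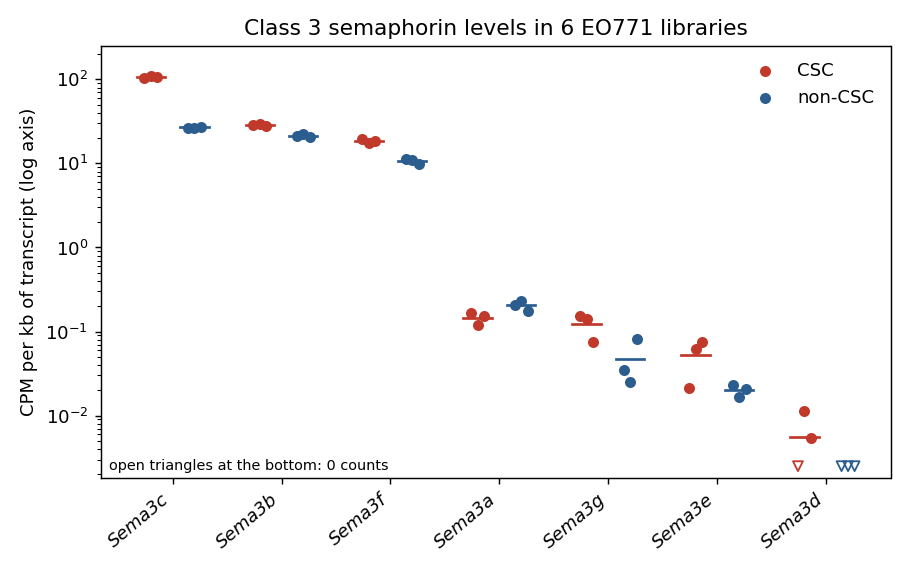
Level of each class 3 semaphorin gene in CPM per kb of transcript (log axis) in each library of CSC (red) and non-CSC (blue). Points are libraries, bars are group means, and open triangles are libraries with 0 counts. Sema3c is at 103 to 110 CPM per kb in CSC and 26.6 to 27.3 in non-CSC, and the 4 scarce genes stay below 0.3 in every library.

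Sema3c was the most abundant class 3 ligand in each library. Its per-length level was 103, 110 and 107 CPM per kb in the CSC libraries, against 26.6, 26.6 and 27.3 CPM per kb in the non-CSC libraries. Sema3b followed with 28.6, 29.5 and 28.0 CPM per kb in CSC, against 21.0, 22.1 and 20.7 in non-CSC. Sema3f had 17.6 to 19.4 CPM per kb in CSC, against 9.95 to 11.2 in non-CSC. The 3 genes did not overlap each other within either group. The level of Sema3c in CSC was thus 3.61 to 3.81 times that of Sema3b, against 1.20 to 1.32 times in non-CSC.

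The scarce genes were far lower, and their order is less certain. Sema3a, the ligand first isolated as collapsin, had 0.119 to 0.165 CPM per kb in CSC and 0.176 to 0.233 in non-CSC. Sema3g, known from vascular endothelium, had 0.0758 to 0.152 CPM per kb in CSC and 0.0254 to 0.0810 in non-CSC. Sema3a and Sema3g overlapped in CSC and did not in non-CSC. Sema3e had 0.0211 to 0.0753 CPM per kb in CSC and 0.0168 to 0.0232 in non-CSC, just below the range of Sema3g in both groups. For the summed counts of Sema3g and Sema3e the exact 95% Poisson intervals overlapped in non-CSC, 0.0299 to 0.0723 and 0.0110 to 0.0337 CPM per kb. They did not overlap in CSC, where Sema3g had 0.0896 to 0.162 and Sema3e 0.0361 to 0.0755. Such intervals cover counting error only.

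Sema3c made up 68.1%, 69.8% and 69.5% of the summed per-length level of the 7 genes in the CSC libraries, against 45.0%, 44.3% and 46.8% in the non-CSC libraries. Sema3b made up 18.9%, 18.8% and 18.3% in CSC, against 35.6%, 36.8% and 35.6% in non-CSC. Sema3f made up 12.0% ± 0.784 in CSC and 18.1% ± 0.940 in non-CSC (SD, n = 3 each), so Sema3c alone took a larger share in CSC among the abundant genes. The 4 scarce genes together came to 0.201% to 0.223% in CSC and 0.444% to 0.477% in non-CSC. The sum itself was 154 ± 2.77 CPM per kb in CSC and 59.1 ± 0.897 in non-CSC. Without Sema3c it was 47.5 ± 0.823 CPM per kb in CSC and 32.3 ± 1.25 in non-CSC. The shares of Sema3b and Sema3f were thus lower in CSC although their own levels were higher.

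**Figure D2:**
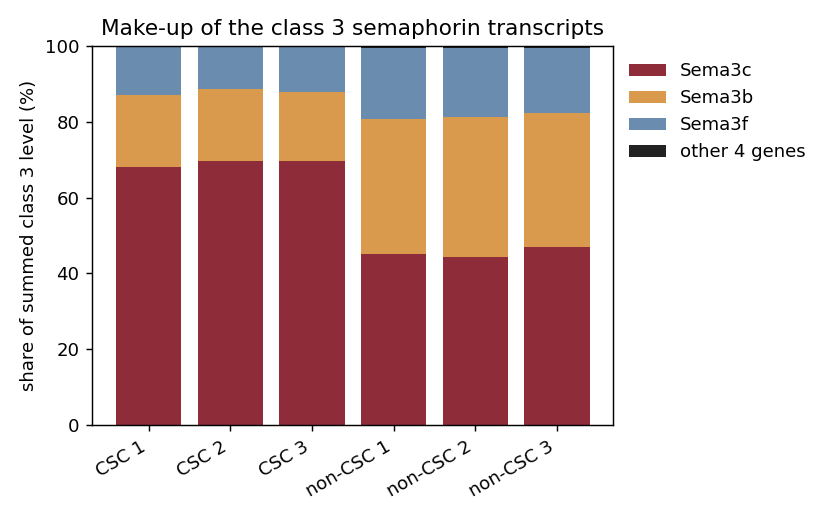
Share of the summed per-length level of the 7 class 3 semaphorin genes (percent) in each library, CSC on the left and non-CSC on the right. Sema3c takes 68.1% to 69.8% in CSC and 44.3% to 46.8% in non-CSC, and the other 4 genes are too scarce to see.

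The shares depend on the length given to each gene, because reads cannot be assigned to isoforms. With coding length Sema3c made up 78.4% in CSC and 57.3% in non-CSC, and with the union of all exons 71.3% and 47.9%. Only with the shortest annotated coding transcript, which for several members is an incomplete fragment, was Sema3b ahead of Sema3c in non-CSC, with 43.4% against 38.8%. In CSC Sema3c led with each of the 4 lengths.

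Among all 20 mouse semaphorins measured per length, Sema3c ranked the first in each CSC library and the second in each non-CSC library, where Sema4b, a membrane semaphorin, was the highest. Sema4b had 30.4 ± 0.324 CPM per kb in CSC and 43.5 ± 2.27 in non-CSC (SD, n = 3 each). Sema3c took 44.8% ± 1.03 of the summed semaphorin level in CSC and 19.2% ± 0.929 in non-CSC. Sema3b was the third and Sema3f the fifth in every library. Among 15664 tested genes with a transcript length, Sema3c was above 96.0% to 96.3% in CSC and above 80.2% to 80.8% in non-CSC.

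Differences between CSC and non-CSC were tested for 5 of the 7 members, those that passed a filter on low counts (edgeR's filterByExpr, 17630 genes). Of the 5, 4 were higher and 1 was lower in CSC at an adjusted p under 0.05. Across all genes tested 66.5% were called, 33.4% higher and 33.1% lower, so a call by itself sets no member apart. At least 2-fold higher were Sema3c and Sema3g, against 8.01% of all genes, and no member was at least 2-fold lower, against 4.09%. All CSC libraries were above all non-CSC libraries for Sema3b, Sema3c and Sema3f, as for 35.0% of all genes, and below them for Sema3a, as for 34.3%. The median log2 fold change of the 5 was 0.79, against 0.01 for all genes.

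**Figure D3:**
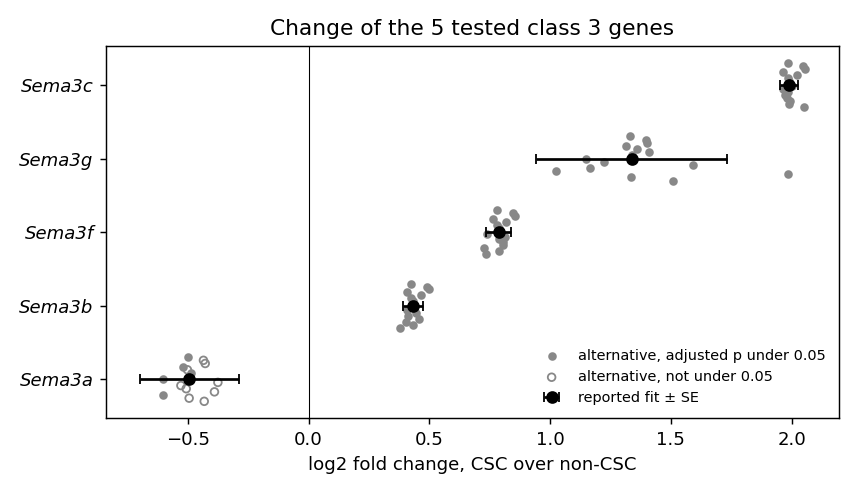
Log2 fold change of the 5 tested class 3 genes, CSC over non-CSC. Black points with bars are the reported edgeR fit with its standard error, and grey points are the alternative settings, open where the adjusted p is not under 0.05. Sema3c lies at 1.96 to 2.06 in each setting, Sema3g spreads from 1.02 to 1.98, and the open points belong to Sema3a.

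Sema3c, which in development guides neural crest cells to the cardiac outflow tract, rose 3.97-fold. It had 15641, 17041 and 17008 counts in CSC, against 4582, 5068 and 5298 in non-CSC. In CPM this was 567, 602 and 586 in CSC, against 146, 146 and 150 in non-CSC, so the lowest CSC library was far above the highest non-CSC library. The log2 fold change was 1.99 ± 0.037 (SE; edgeR adjusted p = 2.88e-22). A log2 fold change at least as large was found for 462 genes (2.62% of those tested), Sema3c counted. Of the 1065 genes whose mean per-length level was at least that of Sema3c, 3 rose at least as much. These were Sema3c itself, Lbp and Thbs1, the last 2 named after their values were seen.

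Sema3f, a ligand that acts mainly through Nrp2, rose 1.73-fold. It had 65.9, 59.9 and 62.5 CPM in CSC, against 37.9, 37.5 and 33.8 CPM in non-CSC. The groups did not overlap, and the log2 fold change was 0.79 ± 0.051 (SE; edgeR adjusted p = 3.61e-12). Sema3b, whose human counterpart is a known p53 target, rose 1.35-fold. It had 98.2, 101 and 96.1 CPM in CSC, against 72.2, 75.9 and 71.1 CPM in non-CSC. These groups did not overlap either, and the log2 fold change was 0.43 ± 0.040 (SE; edgeR adjusted p = 2.05e-09). Sema3b and Sema3f are neighbours. The 30 tested protein-coding genes around each, most of them in common, had a median log2 fold change of 0.27. Around each, 16 were called higher and 4 lower, against 33.4% and 33.1% of all genes tested.

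Sema3g passed the test on few counts. It had 19, 18 and 10 counts in CSC, against 5, 4 and 13 in non-CSC, or 0.689, 0.636 and 0.344 CPM against 0.159, 0.115 and 0.368 CPM. The lowest CSC library was below the highest non-CSC library, so the groups overlapped. The log2 fold change was 1.34 ± 0.39 (SE; edgeR adjusted p = 0.00504). It was 1.98 without non-CSC replicate 3 and 1.02 without non-CSC replicate 2.

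Sema3a was the only tested member lower in CSC, and its call was not stable. It had 27, 20 and 26 counts in CSC, against 38, 48 and 37 in non-CSC, or 0.979, 0.706 and 0.895 CPM against 1.21, 1.38 and 1.05 CPM. The groups did not overlap, as for 69.3% of all genes tested in either direction, and the log2 fold change was -0.49 ± 0.21 (SE; edgeR adjusted p = 0.0386). The call was lost in 9 of the 15 alternatives in which Sema3a was tested, among them DESeq2 (adjusted p = 0.162), and without CSC replicate 2 (adjusted p = 0.155), CSC replicate 3 (adjusted p = 0.0604), non-CSC replicate 1 (adjusted p = 0.0572) or non-CSC replicate 2 (adjusted p = 0.15).

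Sema3e and Sema3d did not pass the count filter. Sema3e had 4, 12 and 15 counts in CSC, against 5, 4 and 5 in non-CSC, so that the first CSC library was within the non-CSC range. With no filter beyond 1 count, edgeR gave it a log2 fold change of 1.35 ± 0.46 (SE; adjusted p = 0.00982). Sema3d, a ligand of developing heart and vessels, had 0, 2 and 1 counts in CSC and 0 in each non-CSC library. The exact 95% Poisson interval of its summed counts was 0.00728 to 0.103 CPM in CSC and 0 to 0.0363 CPM in non-CSC. These intervals overlap, which is not a test of the difference. In the edgeR fit with no filter beyond 1 count, Sema3d had a log2 fold change of 3.28 ± 1.89 (SE; adjusted p = 0.167). No difference was detected at this depth.

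The ratio of Sema3c to each of the other 2 abundant ligands was higher in every CSC library than in any non-CSC library, but 3 against 3 libraries cannot give a p below 0.1. The log2 ratio of Sema3c to Sema3b was 1.89 ± 0.039 in CSC and 0.33 ± 0.065 in non-CSC (SD, n = 3 each; exact two-sided permutation p = 0.1, the smallest that 20 assignments allow). The log2 ratio to Sema3f was 2.53 ± 0.11 in CSC and 1.32 ± 0.11 in non-CSC, and that to Sema3a 9.53 ± 0.28 in CSC and 7.04 ± 0.22 in non-CSC (SD, n = 3 each; exact permutation p = 0.1 for both). The ratio to Sema3g overlapped between the groups, with 9.83 ± 0.56 in CSC and 9.33 ± 0.84 in non-CSC (SD, n = 3 each; exact permutation p = 0.5). These are 4 comparisons, with raw p-values.

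The protein-coding genes closest to Sema3c were barely detected, and those farther away moved in both directions. Cd36, the closest protein-coding gene after it at 51.4 kb, had 1, 1 and 0 counts in CSC and 0 in each non-CSC library. Speer4f1, the closest before it at 93.9 kb, had 2 to 6 counts in CSC and 0 to 2 in non-CSC. Gnat3 and Gm28710 had 0 counts in all 6 libraries, Speer4f2 had at most 5, and Gnai1 had 3 counts in 1 CSC library and 0 elsewhere. Sema3c was thus the only protein-coding gene past the count filter over a stretch that reaches 1200 kb before it and 1489 kb after it, where Cacna2d1 and Magi2 follow.

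Of the 5 tested protein-coding genes before Sema3c, Cacna2d1, a calcium channel subunit gene, rose by 0.48 on the log2 scale (edgeR adjusted p = 0.000988). Tmem243 rose by 0.71 and Elapor2 by 0.78, while Dmtf1 fell by 0.67, and Sema3a is the fifth. The call of Elapor2 was lost with DESeq2 (adjusted p = 0.0643) and without non-CSC replicate 3 (adjusted p = 0.0557). Of the 5 after it, Phtf2 rose by 0.28 and Tmem60 fell by 0.72, and Magi2, Gm52806 and Rsbn1l had log2 fold changes of -0.57, 0.23 and -0.11 that did not pass the test. Without CSC replicate 3 the values of Magi2 and Rsbn1l were -1.07 and -0.18 and passed it (edgeR adjusted p = 0.0428 and 0.0252). Without CSC replicate 2 that of Gm52806 was -0.16. Counting 15 tested genes on each side, 9 were called higher and 12 lower, against 33.4% and 33.1% of all genes tested. Their median log2 fold change was -0.11. Steap4, 9.68 Mb before Sema3c and named after its value was seen, was the only one of the 30 to rise by more than Sema3c, with a log2 fold change of 4.74. The median of chromosome 5 was -0.06, and with it taken off Sema3c stood at 2.05.

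**Figure D4:**
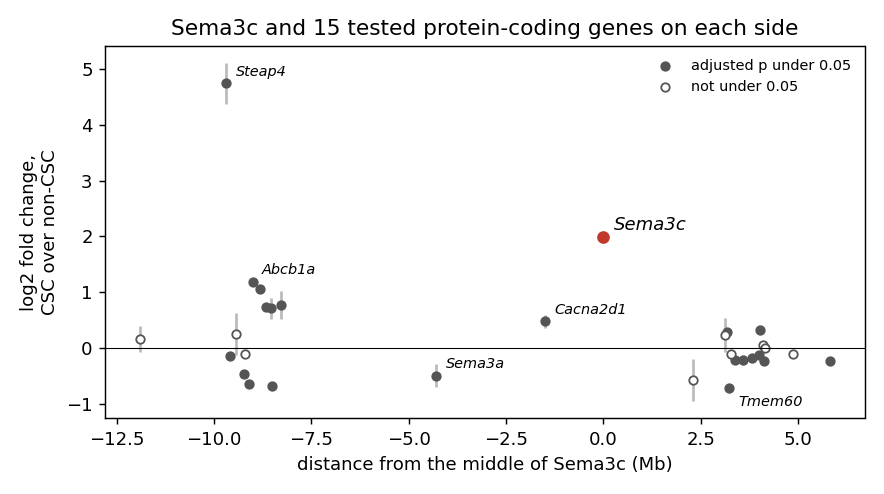
Log2 fold change (CSC over non-CSC, with standard error) of Sema3c, in red, and of 15 tested protein-coding genes on each side, against the distance from the middle of Sema3c in Mb. Filled points have an adjusted p under 0.05. Sema3c stands at 1.99, the median of the 30 others is -0.11, and only Steap4 is higher.

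Receptors for the class 3 ligands were present in both groups, though Plxna4 was barely detected in non-CSC. Of the neuropilins and plexins all 11 were tested. Higher in CSC were 9 and lower 2, and the median of their log2 fold changes was 0.51, against 33.4% higher, 33.1% lower and a median of 0.01 for all genes. Nrp1 had 8.26 to 8.46 CPM per kb in CSC, against 0.711 to 0.776 in non-CSC. It rose by 3.49 ± 0.074 (SE) on the log2 scale (edgeR adjusted p = 3.53e-21). Nrp2, the main neuropilin of Sema3f, had 17.4, 17.4 and 17.1 CPM per kb in CSC, against 19.1, 18.5 and 18.6 in non-CSC. It fell by 0.12 (edgeR adjusted p = 0.00589), which did not pass when libraries were scaled by total count (-0.05) or by upper quartile (-0.06). In all 6 libraries Nrp2 was above Nrp1.

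Of the plexins that pair with neuropilins, Plxna1 was the highest, with 43.1 ± 1.00 CPM per kb in CSC and 36.3 ± 0.771 in non-CSC (SD, n = 3 each), and it rose by 0.25 on the log2 scale. Plxna2 had 5.44 ± 0.166 CPM per kb in CSC and 1.61 ± 0.0330 in non-CSC and rose by 1.76. Plxna3 had 1.35 ± 0.10 CPM per kb in CSC and 0.959 ± 0.0527 in non-CSC and rose by 0.50. Plxna4, the lowest of these, had 0.147 ± 0.0206 CPM per kb in CSC and 0.00986 ± 0.00212 in non-CSC. It rose by 3.84 ± 0.28 (SE). Its non-CSC libraries had only 0.0955, 0.144 and 0.141 CPM, so its non-CSC level rests on few counts. Plxnd1, the receptor of Sema3e, had 0.746 ± 0.120 CPM per kb in CSC and 0.523 ± 0.0781 in non-CSC and rose by 0.51. Plxnb2, a plexin known mainly as a receptor of class 4 semaphorins, was the highest plexin of all. It had 138 ± 3.69 CPM per kb in CSC and 101 ± 2.43 in non-CSC and rose by 0.45. Plxnb1, named after its value was seen, was the only plexin called lower. It had 28.1 ± 0.485 CPM per kb in CSC and 38.1 ± 0.942 in non-CSC and fell by 0.44.

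**Figure D5:**
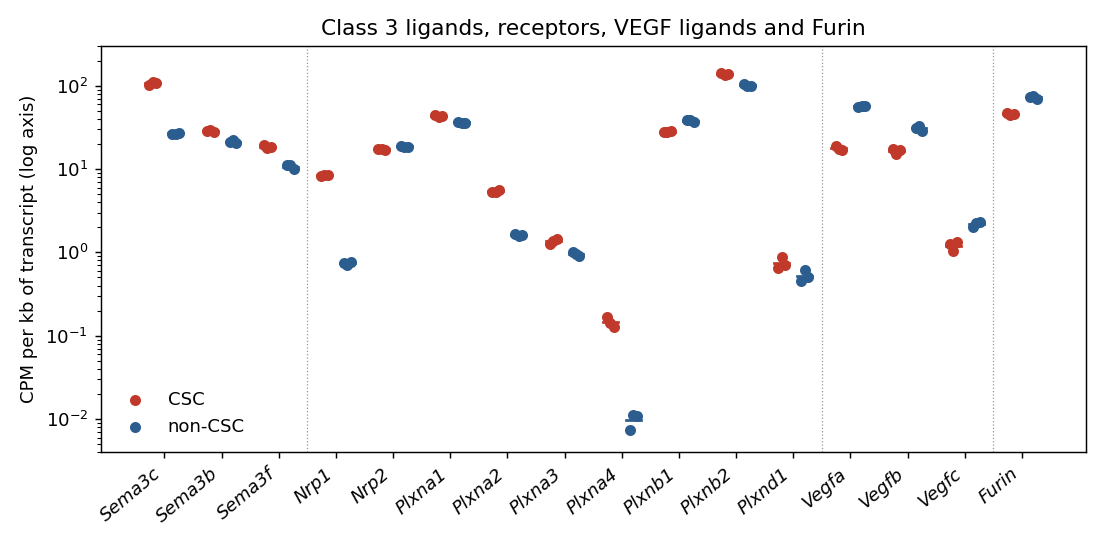
Per-length level (CPM per kb, log axis) of the abundant class 3 ligands, the receptors, the VEGF ligands and Furin in each library of CSC (red) and non-CSC (blue), with bars at group means. Nrp1 is at 8.26 to 8.46 in CSC and 0.711 to 0.776 in non-CSC, and Vegfa averages 17.7 in CSC and 56.4 in non-CSC.

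Of 5 genes of the VEGF family, whose products share the neuropilins, 4 were tested. Lower in CSC were 3 and higher 1, against 33.1% lower and 33.4% higher among all genes, and the median log2 fold change was -0.88. Vegfa had 17.7 ± 0.848 CPM per kb in CSC, against 56.4 ± 0.889 in non-CSC (SD, n = 3 each), and fell by 1.67 ± 0.040 (SE) on the log2 scale (edgeR adjusted p = 3.55e-20). Vegfb fell by 0.90, and Vegfc, named after its value was seen, by 0.86. Vegfd, also named afterwards, was the 1 that rose, with 1.01 CPM in CSC against 0.233 CPM in non-CSC and a log2 fold change of 2.08. In CSC Sema3c was above Vegfa per length in each library, and in non-CSC Vegfa was above Sema3c in each.

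Proteases that process secreted semaphorins did not move together. Of 9 genes 6 were tested. Their median log2 fold change was -0.24, with 3 called higher and 3 lower, against 33.4% and 33.1% of all genes tested. Furin, the convertase that cuts class 3 semaphorins at basic sites, had 46.8, 44.1 and 46.1 CPM per kb in CSC, against 74.0, 74.9 and 69.3 in non-CSC, and fell by 0.67 ± 0.038 (SE) on the log2 scale (edgeR adjusted p = 3.73e-13). Adamts1, a metalloprotease reported to cleave human SEMA3C, fell by 0.57, and the convertase gene Pcsk4 by 0.60, while Pcsk6 rose by 0.34.

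Of 12 further co-receptor genes 8 were tested. Their median log2 fold change was -0.12, with 2 called higher and 4 lower, against 33.4% and 33.1% of all genes tested. Egfr, the epidermal growth factor receptor, rose by 0.52 and Flt4, a VEGF receptor gene, by 0.62. Nrcam, a cell adhesion molecule of axons, fell by 2.89 and Met, the hepatocyte growth factor receptor, by 0.30 on the log2 scale. Among intracellular effectors of plexins, 26 of 31 were tested. The median was -0.17, with 9 called higher and 14 lower, against the same shares of all genes tested. Limk1, the kinase of the actin-severing protein cofilin, fell by 0.97, the exchange factor gene Farp1 by 0.68, and the small GTPase genes Rnd1 and Rhod by 0.58 and 0.53. Among regulators described for class 3 genes, Trp53 rose by 0.36 and Zeb1, a repressor of human SEMA3F, fell by 0.31. Gata6, an activator of Sema3c in the outflow tract, averaged 0 CPM in CSC and 0.00942 CPM in non-CSC and was not tested.

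The 13 semaphorins of classes 4 to 7 were split, with 5 called higher and 4 lower of 11 tested and a median of 0.04. Of all genes tested 33.4% were called higher and 33.1% lower. Sema4a rose by 1.77 and Sema4c by 0.92 on the log2 scale. Sema7a, a membrane-anchored semaphorin, had 0.583 ± 0.0647 CPM per kb in CSC and 6.39 ± 0.265 in non-CSC (SD, n = 3 each) and fell by 3.45, and Sema4g fell by 1.25.

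The genes whose pattern over the 6 libraries was most like that of Sema3c were Xdh, Prex2, C1s2, Rdh10 and Ctns. Likeness was the root mean square difference of centred log2 CPM among 9945 genes, and it was 0.040 for Xdh, the xanthine dehydrogenase gene, and 0.069 for Ctns, a lysosomal cystine transporter gene. As the libraries fall into 2 tight groups, such likeness means mainly a fold change of the same size. Xdh had 80.4, 85.1 and 82.8 CPM in CSC, against 21.8, 21.9 and 21.1 CPM in non-CSC. None of the 5 lies on chromosome 5. C1s2 has a close paralog, and reads in common with it were not checked.

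Markers of mammary epithelium were present in all libraries. Over 8 genes they summed to 4065 to 4253 CPM in CSC and 3311 to 3465 CPM in non-CSC. Krt8, Krt18, Krt19 and Krt7 were high and Cdh1 was under 1.1 CPM. All 8 were tested, with 4 called higher and 2 lower, against 33.4% and 33.1% of all genes tested. The lower 2, named after their values were seen, were Epcam and Krt5. Epcam had 10.2 CPM in CSC and 21.3 CPM in non-CSC, and Krt5 1.01 CPM in CSC and 3.64 CPM in non-CSC. Markers of cancer stem cells summed to 3426 to 3517 CPM in CSC and 3692 to 3747 CPM in non-CSC over 10 genes. Of 8 tested, 4 were called higher and 3 lower, against 33.4% and 33.1% of all genes tested. Named after their values were seen, the higher were Cd44, Cd24a, Aldh1a1 and Lgr5, and the lower Itga6, Itgb1 and Procr. Itga6 had 846 CPM in CSC and 1448 CPM in non-CSC, and Itgb1 701 CPM in CSC and 802 CPM in non-CSC. Aldh1a1 had 784 CPM in CSC and 487 CPM in non-CSC, and Lgr5 66.8 CPM in CSC and 27.4 CPM in non-CSC. Fibroblast markers summed to 1195 to 1242 CPM in CSC and 555 to 589 CPM in non-CSC over 6 genes, nearly all of it Dcn, with Lum at 0. Immune markers summed to 35.5 to 36.7 CPM in CSC and 27.1 to 29.1 CPM in non-CSC over 7 genes, with Adgre1 and Cd3e at 0. Their members went opposite ways. Itgam had 10.2 CPM in CSC and 0.740 CPM in non-CSC, and Csf1r 8.05 CPM in CSC and 1.85 CPM in non-CSC. Cd68 had 17.8 CPM in CSC and 25.4 CPM in non-CSC. The gene model Gm49368 overlaps 68.7% of the Itgam exon bases on the same strand, and reads in common with it were not checked. Endothelial markers summed to 5.83 to 6.03 CPM in CSC and 1.38 to 1.75 CPM in non-CSC over 6 genes. Tek and Emcn were at 0, and most of the sum was Vwf, at 5.45 CPM in CSC and 0.898 CPM in non-CSC. Pecam1 went the other way, at 0.330 CPM in CSC and 0.586 CPM in non-CSC. Vwf and Pecam1 were named after their values were seen. Neural markers summed to 1.48 to 1.63 CPM in CSC and 1.01 to 1.05 CPM in non-CSC over 6 genes. The part of these differences in the semaphorin results was not tested. In such bulk samples more cells of a type and more RNA per cell cannot be told apart.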

How the data were processed

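RNA was extracted from EO771 cells with Trizol and made into libraries with a NEBNext Ultra II kit, per the labels' protocols. The authors deposited raw, unscaled read counts per gene symbol. The genome build was GRCm38, per the submitters' processing notes. Details not given in the sources used here are the aligner, the counting tool, its annotation and its strand setting. The 6 columns were matched to samples by group word and replicate number.

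Counts were filtered with filterByExpr, scaled by TMM (factors 0.974 to 1.03) and fitted with edgeR 4.0.16 (quasi-likelihood test, robust, no covariate) in R 4.3.3, adjusted by Benjamini-Hochberg over 17630 genes at a threshold of 0.05. The standard error is the log2 fold change divided by the square root of F. The method was tested on simulated counts in which few genes changed, as many up as down. In the data 66.5% of genes were called, so the simulation does not test the scaling under that condition. Replicates differed beyond sampling noise (chi-square per degree of freedom 3.21 to 7.30). A common coefficient of variation of 4.11% lets small differences pass the test.

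Per-length levels divide CPM by the longest GENCODE M21 transcript, matched for 38438 of 49523 symbols. Positions are from RefSeq GRCm38.p6. Coding sequences were aligned with Biopython 1.88, and exact permutation tests used SciPy 1.17.1.

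The members and lists were chosen with earlier results of these data known. Besides the members, the genes named are up to 4 per list with the largest changes (adjusted p under 0.05, mean of at least 5 CPM), the main receptors and Furin, 5 tested genes on each side of Sema3c, and the 5 most like it. Sema4b, Gata6 and the cell type markers follow no such rule and count as named after their values were seen. The annotated genes nearest to Sema3c were taken by position. Others are said to be named afterwards. Alternatives were other scalings and filters, DESeq2 1.42.0, limma-voom (3.58.1), the robust setting off, each library left out, a replicate block, a chromosome offset and other lengths.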

Additional observations from a re-analysis of the deposited data

How the results depend on the processing

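Sema3c, Sema3b and Sema3f were called higher under all 16 alternatives of scaling, filter, tool, libraries, block and chromosome offset, and Sema3g under the 15 in which it was tested. The range without 1 library was 1.96 to 2.00 for Sema3c, 0.40 to 0.46 for Sema3b, 0.73 to 0.81 for Sema3f, 1.02 to 1.98 for Sema3g and -0.60 to -0.38 for Sema3a (log2). The call of Sema3a was also lost with upper-quartile scaling (-0.44), library-size scaling (-0.43), DESeq2 (-0.50), the replicate block (-0.49, adjusted p = 0.0517) and the chromosome offset (-0.43). Libraries with the same number did not deviate together over all tested genes (correlations of -0.026 to -0.011, against 0.0024 to 0.019 for other pairs). As each deviation is from a mean of only 3 libraries, values this small do not settle whether the numbers pair the libraries. The labels leave this open. With the replicate block 11680 genes were called, against 11732 without it.

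The share of Sema3c moved with the length used. In CSC it was 78.4% with coding length, 71.3% with the union of exons, 63.5% with the shortest coding transcript and 78.2% with counts and no length. In non-CSC these were 57.3%, 47.9%, 38.8% and 57.0%. Without 1 library it stayed at 68.8% to 69.7% in CSC and 44.7% to 45.9% in non-CSC. The counts of called genes in all 7 lists stayed within 1.5 times under the 16 alternatives. Upper-quartile and library-size scaling turned the split of calls to 6700 higher and 5066 lower, and 6781 higher and 4970 lower, against 5894 and 5838. Of 42 other named genes 37 kept their direction and side of the threshold. Gm52806 ran from -0.16, without CSC replicate 2, to 0.49, without CSC replicate 3. Depth limits Sema3d, Sema3e, Sema3g and Sema3a, each with under 50 counts in every library.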
